A study of Mus musculus with 2 samples.

Results

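The genes described here encode the hnRNP and SR proteins and their partners at the 3′ splice site, in hearts of mice with and without a mutant cardiac myosin. Members were taken by gene symbol from the deposited table: symbols that begin with Hnrnp, Srsf or Sfrs and a digit, Tra2a or Tra2b, Sf3a or Sf3b and a digit, or U2af. This gave 55 of the 30385 listed entries, namely 20 hnRNP, 21 SR, 2 Tra2, 3 SF3a, 5 SF3b and 4 U2AF entries. The MHC403 group was MHC403/+ mice, which carry 1 copy of a missense allele of the myosin heavy chain and model hypertrophic cardiomyopathy, and the WT group was wild-type mice. All were 129/SvEv mice of 8 to 16 weeks, and all, WT included, had received CsA (cyclosporine A, a calcineurin inhibitor) for 2 weeks, as 2 daily subcutaneous doses of 15 mg/kg. RNA 5′ ends were sequenced from heart, with the animals of each genotype pooled into 1 library. Every value below therefore compares 2 libraries, with no replicates, no test and no p-value.

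Pre-mRNA splicing removes introns, and which exons are kept depends on proteins that bind the transcript near the splice sites. SR proteins carry RNA recognition motifs and a domain rich in arginine and serine, and mostly favour the use of exons that they bind. Most hnRNPs coat nascent RNA and often oppose the use of nearby sites, although both families act in either direction depending on where they bind. U2AF recognises the 3′ splice site, and SF3a and SF3b are parts of the U2 snRNP, the particle that pairs with the branch point. In mouse heart, loss of Srsf1, Srsf2 or Hnrnpu in cardiomyocytes is known to cause splicing defects or cardiomyopathy.

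Depth was close to equal, with 5468677 reads for MHC403 and 5481123 for WT. Reads were scaled to these totals and are given as RPM, and ratios are MHC403 over WT. The range after a ratio is an exact (Clopper-Pearson) 95% interval that covers counting error only. Entries that reached 50 reads in either library count as measured, and 9507 did. Their median ratio was 1.48-fold, a log2 ratio of 0.57, so a ratio near 1.48 is what a typical entry showed with this scaling. Counts are also given with median-of-ratios scaling, under which each log2 ratio is 0.55 lower.

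Heart identity was clear in both libraries. All 8 cardiomyocyte markers were measured, and they summed to 27104 RPM in MHC403 and 27168 RPM in WT, a ratio of 0.998. Single markers went both ways, from Pln at 0.513-fold, Tnni3 at 0.582-fold and Myl3 at 0.653-fold to Actn2 at 1.56-fold and Actc1 at 1.85-fold. Markers of other cell types differed between the libraries. The 7 fibroblast markers summed to 3023 RPM in MHC403 and 463 RPM in WT, and the 8 listed macrophage markers to 632 and 208 RPM. These sums hide unlike ratios. The collagens Col1a1, Col3a1 and Col1a2 were 26.2-fold, 19.8-fold and 15.3-fold higher, while Dcn and Tcf21 were each 1.79-fold higher. Macrophage markers ran from Cd163 at 1.04-fold to Cd68 at 5.55-fold. Single fibroblast markers ranged from 12.4 to 899 RPM in MHC403 and from 6.93 to 304 RPM in WT, and single macrophage markers from 13.2 to 187 RPM and from 4.93 to 59.3 RPM. No fibroblast or macrophage marker was at 0. Smooth muscle markers, of which 3 of 4 were measured, summed to 222 RPM in MHC403 and 103 RPM in WT, and erythroid markers to 238 and 111 RPM. Of 6 skeletal muscle markers 3 were measured, and Ckm, which heart also expresses, held most of their sum, with 1292 RPM in MHC403 and 2347 RPM in WT. The 6 endothelial markers summed to 435 RPM in MHC403 and 356 RPM in WT, and no lymphocyte, proliferation or neuron marker reached 50 reads. Splicing proteins are made in every one of these cell types, and the part of cell makeup in the ratios below was not tested. In such bulk RNA, fewer cells of a type and less RNA per cell cannot be told apart.

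The ratios of the splicing proteins spanned a narrow range. Of the 54 measured members, 50 had a ratio above 1, yet only Tra2b, Sf3a2 and the entry Srsf8 were at least 2-fold higher in MHC403, and none was 2-fold lower. That is 5.56% of the members at least 2-fold higher, against 26.1% of all measured entries, and 0 members at least 2-fold lower, against 2.43% of all. The median log2 ratio was 0.44 (1.36-fold), which lay 0.13 below the median of all measured entries, and 34 members (63.0%) lay below that median. For the 35 members that reached 200 reads, the median was 0.019 below that of all such entries. The middle 50% of members spanned 0.50 log2 units, whereas the middle 50% of all measured entries spanned 0.88, or 0.85 among entries with the same range of reads as the members (60 to 2289 in the higher library). The 125 measured genes of other splicing lists, described below, spanned 0.49, so the narrow range was not particular to the members. The remaining member, Srsf13b, had 0 reads in each library.

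By counting error alone, the interval lay wholly above 1 for 34 members, or 63.0%, against 63.2% of all measured entries, a share near that of all entries. It lay wholly below 1 for 1 member, Hnrnpa2b1, or 1.85%, against 10.3% of all. With median-of-ratios scaling no member was at least 2-fold higher (10.9% of all measured entries were) and 1, Hnrnpa2b1, was at least 2-fold lower (7.59% of all). With that scaling 8 intervals lay above 1 (29.6% of all) and 18 below 1 (28.4% of all). The direction of many members against WT thus depends on the scaling, and their order among themselves does not.

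**Figure D1:**
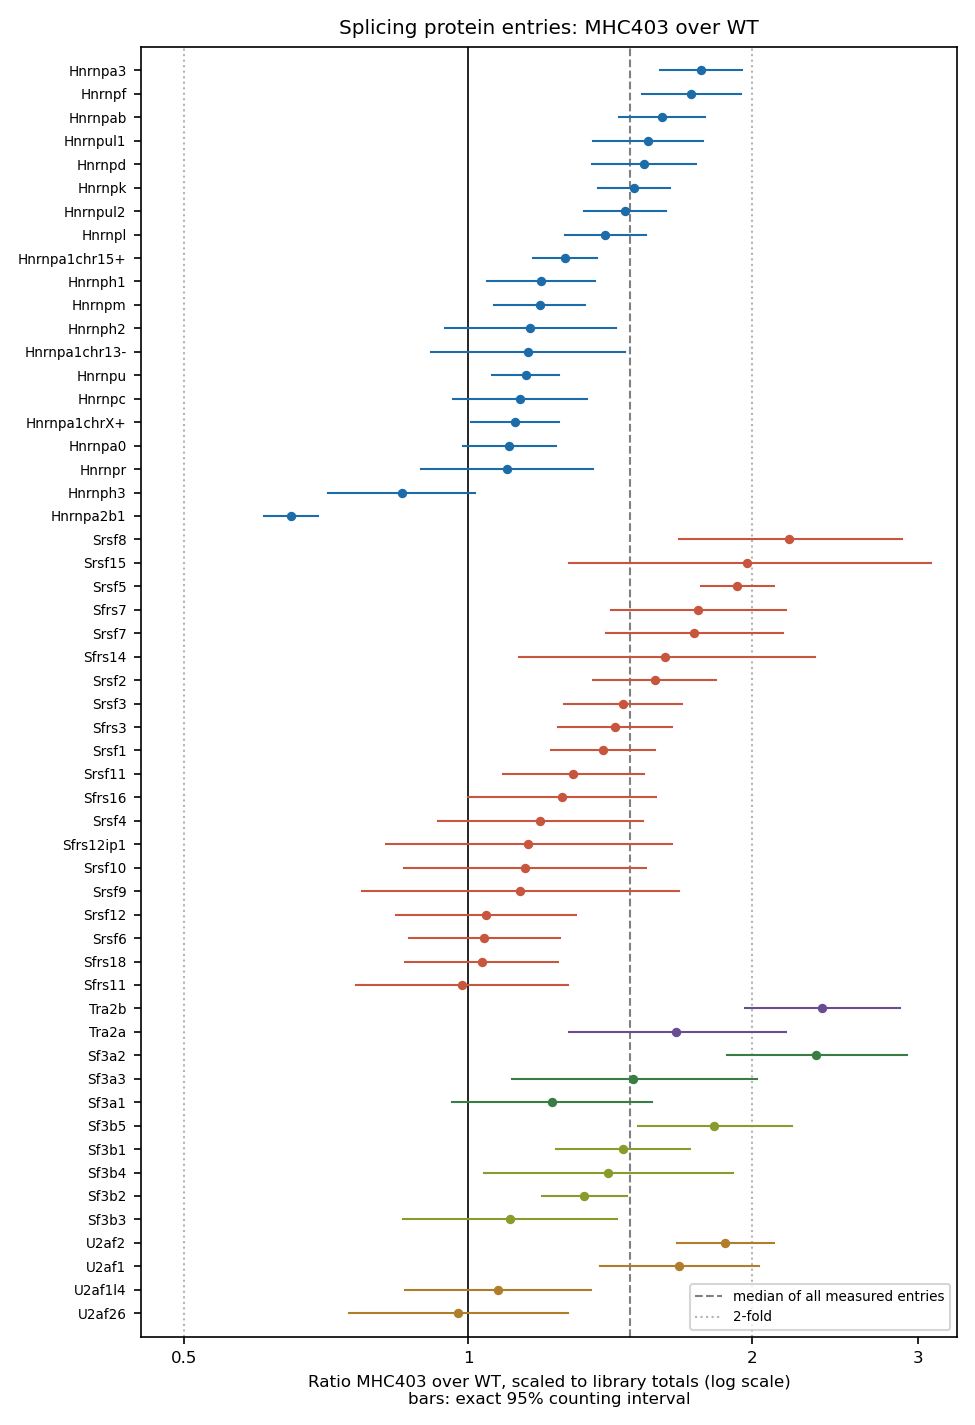
Ratio MHC403 over WT of each measured entry (x axis, log scale, reads scaled to library totals) with its exact 95% counting interval, grouped and coloured by protein class and sorted within it. Hnrnpa2b1 is the entry farthest left at 0.649 and Tra2b the farthest right at 2.37, and most points lie between 1 and the dashed line at 1.48, the median of all measured entries.

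**Figure D2:**
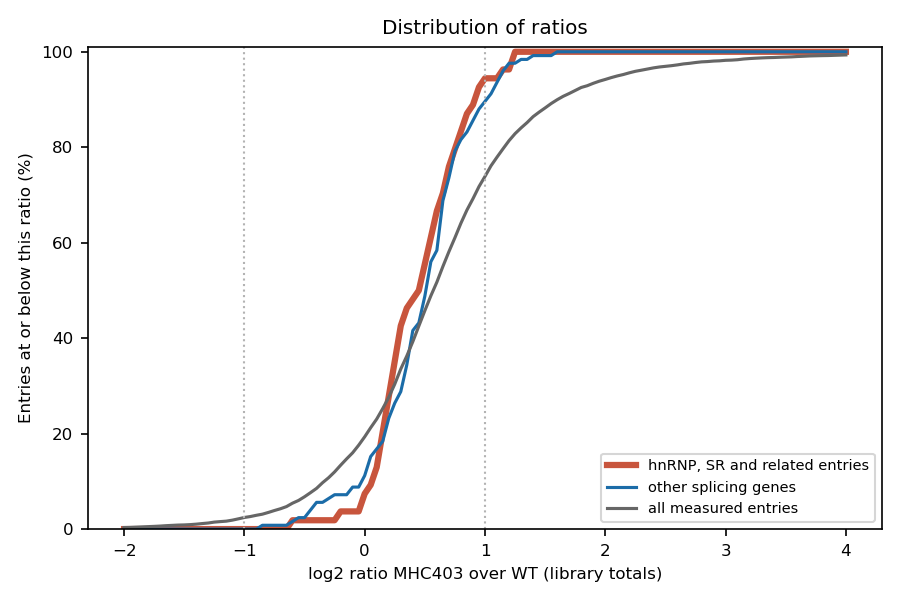
Percentage of entries (y axis) at or below each log2 ratio MHC403 over WT (x axis) for the splicing protein entries, 125 measured genes of 10 other splicing lists and all 9507 measured entries. Dotted lines mark 2-fold. The curve of the splicing proteins is steeper than that of all entries, with few members past either line, and so is the curve of the other splicing genes.

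The hnRNP entries, as chosen by symbol, were the class with the lowest median. All 20 were measured, and their log2 ratios had a median of 0.25 (1.19-fold), 0.31 below that of all measured entries, with 14 of 20 below it. None was 2-fold higher or lower with library totals, while 26.1% of all measured entries were higher and 2.43% lower. With library totals 13 intervals lay above 1 (65.0%, against 63.2% of all), 1 below 1 (5.0%, against 10.3% of all) and 6 included 1. With median-of-ratios scaling 2 intervals lay above 1 (29.6% of all) and 11 below 1 (55.0%, against 28.4% of all). With that scaling 1 entry was at least 2-fold lower (7.59% of all) and 0 higher (10.9% of all). Within the class the entries ran from 0.649-fold to 1.76-fold. Some hnRNP genes with other symbols lie outside the class, and most of those named here had higher ratios. Ptbp1, Syncrip, Pcbp1, Hnrpll and Hnrpdl were at 2.56-fold, 2.00-fold, 1.97-fold, 1.66-fold and 1.64-fold, and Pcbp2 at 1.29-fold. A median with such genes included was not computed, so the low median holds only for the entries chosen by symbol.

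Hnrnpa2b1 encodes hnRNP A2 and B1, abundant proteins that bind and sort RNA (chromosome 6, 51410433 to 51419893, mm9 build). It had 1483 reads in MHC403 (271 RPM) and 2289 reads in WT (418 RPM), the most reads of any member in WT. The MHC403 library was thus the lower one, 1.54-fold (1.44 to 1.65) below WT, and 5.08% of measured entries had a smaller ratio. With median-of-ratios scaling it was 2.25-fold (2.11 to 2.40) lower. The table also lists an entry named hnRNP A2/B1, whose single window of 200 bases is contained in the 486 bases of the Hnrnpa2b1 windows and starts at the upstream of 2 annotated starts. That entry had 300 reads in MHC403 and 335 in WT, a ratio of 0.898 (0.765 to 1.05). The interval of the narrow entry includes 1, while that of the Hnrnpa2b1 entry does not. The sources used here do not say how overlapping entries shared reads, so the remainder was not computed.

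Hnrnph3, a smaller relative of the G-tract binding hnRNP H proteins (chromosome 10), was the only other hnRNP with a ratio under 1. It had 230 reads in MHC403 and 271 in WT, a ratio of 0.851 (0.710 to 1.02), so the difference was within counting error. Its paralogs had ratios a little above 1. Hnrnph1 had 502 reads in MHC403 and 421 in WT (1.20-fold, 1.05 to 1.36), and Hnrnph2 had 201 and 173 (1.16-fold, 0.946 to 1.44). The fourth G-tract binder, Hnrnpf (chromosome 6), was higher than these, with 733 reads in MHC403 and 426 in WT (1.72-fold, 1.53 to 1.95). The intervals of Hnrnpf and Hnrnph1 did not overlap.

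Hnrnpa3, an A-type hnRNP (chromosome 2, 75497315 to 75507464), had the highest hnRNP ratio. It had 1086 reads in MHC403 (199 RPM) and 617 in WT (113 RPM), 1.76-fold (1.60 to 1.95) higher. Within 400 bases of the transcript start, 93.2% of its 36-base words also occur in transcripts of 44 other genes, so its reads are uncertain. Hnrnpab, whose product binds RNA and single-stranded DNA, had 929 reads in MHC403 and 580 in WT (1.61-fold, 1.45 to 1.78). The A-type gene Hnrnpa0 was near level, with 649 reads in MHC403 and 588 in WT (1.11-fold, 0.988 to 1.24). A-type genes thus lay at both ends of the class.

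Hnrnpa1, a repressor of exon inclusion that is often set against SR proteins, gives its name to 3 entries on chromosomes 13, 15 and X. The entry on chromosome X is described as Hnrnpa1l2 protein and that on chromosome 13 as a putative uncharacterized protein. Neither matched a RefSeq symbol, so they may not be this gene, and both are counted among the 20 hnRNP entries. The entry on chromosome 15, where RefSeq places the gene, had 1450 reads in MHC403 and 1148 in WT, a ratio of 1.27 (1.17 to 1.37). The entry on chromosome X had 725 reads in MHC403 and 648 in WT (1.12-fold, 1.01 to 1.25), and that on chromosome 13 had 157 and 136 (1.16-fold, 0.914 to 1.47). Of the 36-base words near the Hnrnpa1 start, 80.8% occur in transcripts of other genes, so how reads fell among the 3 entries is uncertain. Summed, the 3 entries gave 2332 reads in MHC403 and 1932 in WT, a ratio of 1.21 (1.14 to 1.29).

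Several broadly acting hnRNPs lay near the median of all entries. Hnrnpk, which binds C-rich RNA, had 1280 reads in MHC403 and 856 in WT (1.499-fold, 1.37 to 1.64). The CA-repeat binder Hnrnpl had 962 and 690 (1.40-fold, 1.27 to 1.54), and Hnrnpd, also called AUF1, which binds AU-rich elements, had 633 and 413 (1.54-fold, 1.35 to 1.74). Hnrnpul1 and Hnrnpul2, relatives of Hnrnpu, were 1.55-fold and 1.47-fold higher. Hnrnpu itself, a nuclear scaffold and splicing protein needed in mouse heart, had 1233 reads in MHC403 and 1074 in WT, a ratio of 1.15 (1.06 to 1.25). Its interval lay below those of Hnrnpul1 and Hnrnpul2. Hnrnpc, which binds uridine tracts, Hnrnpm and Hnrnpr had ratios between 1.10 and 1.19.

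**Figure D3:**
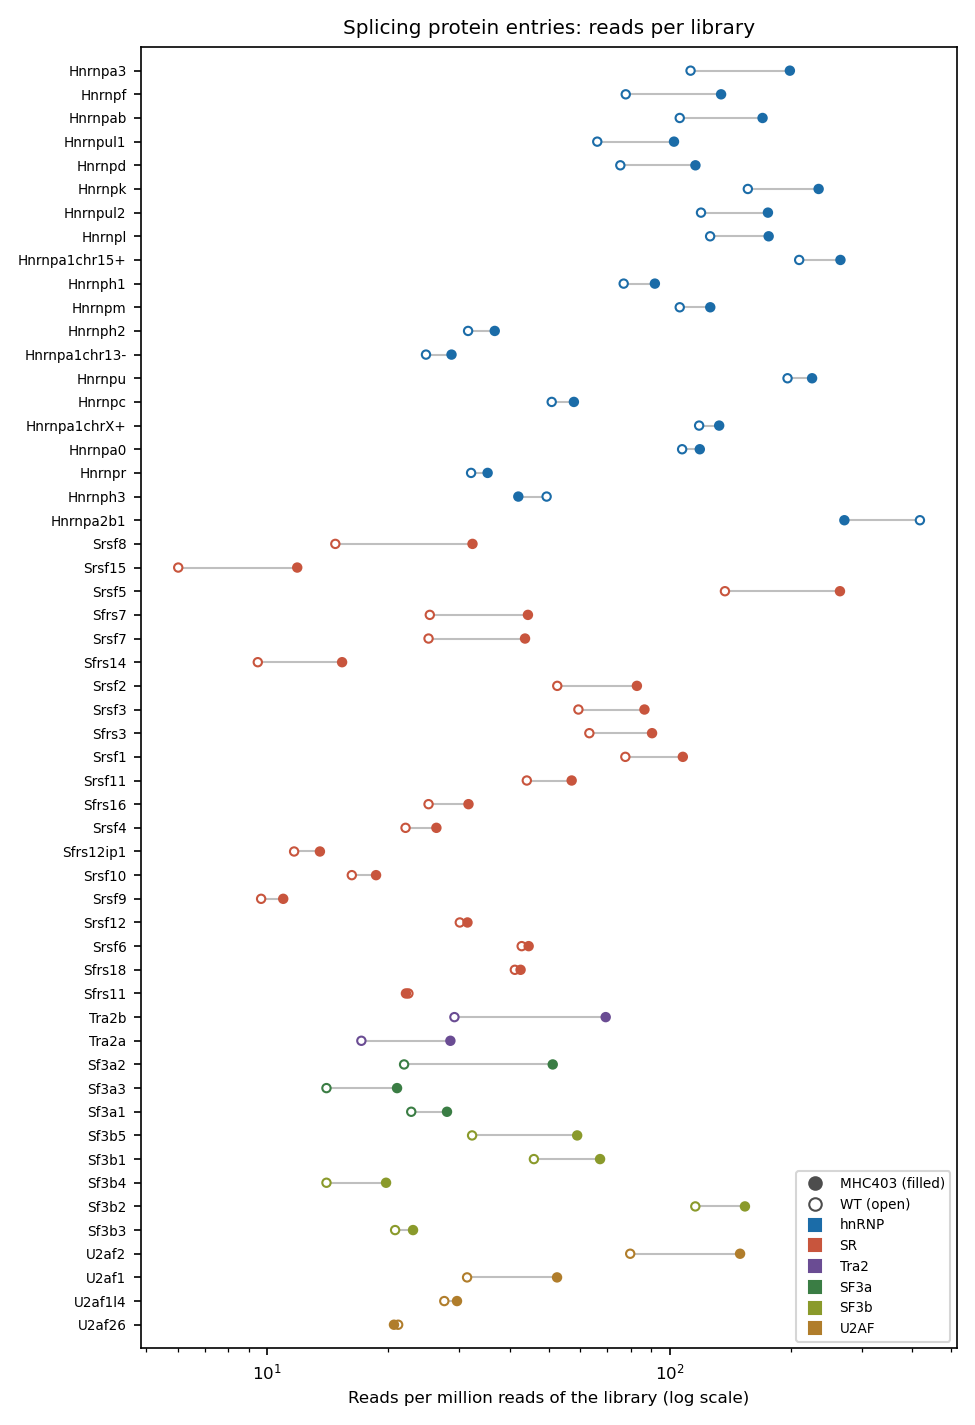
RPM of each measured entry (x axis, log scale) in MHC403 (filled) and WT (open), 1 pooled library each, in the same order as the plot of ratios. Lengths of the counted windows differ, so points should be compared along a row and not between rows. Hnrnpa2b1, Hnrnph3, Sfrs11 and U2af26 are the rows whose filled point lies left of the open one.

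The SR entries were mixed in what they named. Of the 21 entries, 7 have a current RefSeq symbol outside the SR family, found through their older symbol on the same chromosome. They are Sfrs12ip1 (Srek1ip1), Sfrs14 (Sugp2), Sfrs16 (Clasrp), Sfrs18 (Pnisr), Srsf8 (Sfswap), Srsf12 (Srek1) and Srsf15 (Scaf4), proteins that are related to SR proteins or bind them. The entry Srsf13b is the gene that RefSeq now calls Srsf12. Srsf3 and Srsf7 were further listed in duplicate, and Srsf11 in 2 entries whose windows overlap only in part. Of 20 measured SR entries, 1 was at least 2-fold higher (26.1% of all measured entries were) and 0 lower (2.43% of all). With library totals 11 intervals lay above 1 (55.0%, against 63.2% of all), 0 below (10.3% of all), and 9 included 1. With median-of-ratios scaling 0 of 20 entries passed 2-fold (10.9% of all measured entries were higher and 7.59% lower). With that scaling 2 of the 20 intervals lay above 1 (29.6% of all) and 4 below 1 (28.4% of all). Both shares were thus smaller than those of all entries. The median log2 ratio was 0.42 (1.34-fold) over all 20, and 0.47 over the 13 entries with an SR symbol in RefSeq.

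Srsf5 (chromosome 12, 82046490 to 82051494), a classical SR protein, had the most reads and the highest ratio of the entries that RefSeq places in the family. It had 1446 reads in MHC403 (264 RPM) and 751 in WT (137 RPM), 1.93-fold (1.77 to 2.11) higher. Its interval lay above that of Srsf1, the founding member, which had 589 reads in MHC403 and 425 in WT (1.39-fold, 1.22 to 1.58). Its interval also lay above that of Srsf6, which had 244 reads in MHC403 and 235 in WT (1.04-fold, 0.866 to 1.25). Srsf4, Srsf5 and Srsf6 are close relatives, and Srsf4 had 144 and 121 reads (1.19-fold, 0.930 to 1.53), so Srsf5 stood apart while the intervals of Srsf4 and Srsf6 overlapped and included 1.

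Srsf7, which shares with Srsf3 a role in mRNA export, had 239 reads in MHC403 and 138 in WT (1.74-fold, 1.40 to 2.16). Its duplicate Sfrs7 had 243 and 139 reads. Srsf2, a mainly nuclear SR protein, had 453 reads in MHC403 and 288 in WT (1.58-fold, 1.36 to 1.83). Srsf3, a small SR protein, had 473 and 325 reads (1.46-fold, 1.26 to 1.69). Its duplicate Sfrs3 lists the same windows and had 494 and 346, and 64.4% of the 36-base words near its start occur in transcripts of other genes. These intervals included the median of all measured entries.

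The lowest ratios of the class were those of Sfrs11, Sfrs18, Srsf6 and Srsf12, and Srsf12 had 172 reads in MHC403 and 165 in WT (1.04-fold, 0.839 to 1.30). Srsf9 had 60 reads in MHC403 and 53 in WT, the fewest of any measured member in MHC403, and Srsf10, a splicing repressor when dephosphorylated, had 102 and 89. Their ratios were 1.13 (0.771 to 1.67) and 1.15 (0.856 to 1.54). Sfrs18 had 233 and 226 reads (1.03-fold, 0.857 to 1.25). Sfrs11 had 121 reads in MHC403 and 123 in WT, a ratio of 0.986 (0.761 to 1.28), while Srsf11, which lists 4 starts in place of 2, had 312 and 242 (1.29-fold, 1.09 to 1.53). Their windows share 135 bases, and the 2 intervals overlap.

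Only 1 entry of the class passed 2-fold, Srsf8, whose RefSeq gene is Sfswap (chromosome 5), a relative of a Drosophila protein that regulates splicing of its own transcript. It had 177 reads in MHC403 and 81 in WT, 2.19-fold (1.67 to 2.89) higher. A separate entry Sfswap with overlapping windows had 144 and 69 reads, a ratio of 2.09. Srsf15, or Scaf4, a protein that binds the tail of RNA polymerase II, was just under the line with 65 reads in MHC403 and 33 in WT (1.97-fold, 1.28 to 3.10). The entry Scaf4, which adds later starts, had 160 and 121 reads (1.33-fold, 1.04 to 1.69).

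Tra2b (chromosome 16, 22245813 to 22266002) was the member with the highest ratio of all. Its product is an SR-like protein that binds purine-rich exonic enhancers and favours exon inclusion. It had 379 reads in MHC403 (69.3 RPM) and 160 in WT (29.2 RPM), 2.37-fold (1.97 to 2.87) higher, and 1.62-fold with median-of-ratios scaling. Of measured entries 82.7% had a smaller ratio, so the highest member stood well inside the range of the transcriptome. Transcripts of other genes hold 43.2% of the 36-base words near its start. Its paralog Tra2a had 156 reads in MHC403 and 94 in WT (1.66-fold, 1.28 to 2.17), with an interval that overlaps that of Tra2b.

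Subunits of SF3a and SF3b had unlike ratios. Sf3a2 (chromosome 10, 80261479 to 80267667), a zinc finger subunit of SF3a, had 280 reads in MHC403 (51.2 RPM) and 120 in WT (21.9 RPM), 2.34-fold (1.88 to 2.92) higher. Its partners in the same 3-subunit complex were lower than that. Sf3a1 had 153 reads in MHC403 and 125 in WT (1.23-fold, 0.962 to 1.57), and Sf3a3 had 115 and 77 (1.497-fold, 1.11 to 2.02). The intervals of Sf3a2 and Sf3a1 did not overlap.

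Of the 5 entries with an Sf3b symbol, Sf3b5, a small subunit, was highest with 322 reads in MHC403 and 177 in WT (1.82-fold, 1.51 to 2.20). Sf3b1, the scaffold at the branch point, had 367 and 252 reads (1.46-fold, 1.24 to 1.72), and Sf3b2 had 840 and 634 (1.33-fold, 1.20 to 1.47). Sf3b4 had 108 and 77 reads (1.41-fold, 1.04 to 1.91). Sf3b3 was the lowest of these 5 entries with 126 and 114 reads (1.11-fold, 0.853 to 1.44), and its windows overlap those of Cog4 on the other strand. None of the 5 passed 2-fold (26.1% of all measured entries were higher and 2.43% lower), and their median log2 ratio was 0.49.

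U2AF entries split by gene. U2af2, the large subunit that binds the polypyrimidine tract (chromosome 7, 5013783 to 5031541), had 817 reads in MHC403 (149 RPM) and 437 in WT (79.7 RPM), 1.87-fold (1.67 to 2.11) higher. U2af1, the small subunit that reads the AG at the intron end, had 287 and 172 reads (1.67-fold, 1.38 to 2.03). U2af1l4, a paralog of U2af1, had 162 reads in MHC403 and 151 in WT (1.08-fold, 0.856 to 1.35), and the overlapping entry U2af26 of the same gene had 113 and 116 (0.976-fold, 0.747 to 1.28). The interval of U2af1l4 lay below those of U2af1 and U2af2. Transcripts of other genes hold 64.3% of the 36-base words near the U2af1l4 start and 51.6% of those near the U2af1 start, so these reads are uncertain. Reads of U2af1l4 and U2af26 also overlap the entry Tmem149.

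Summed over the members, with each of the 4 overlapping pairs taken once, reads made up 0.441% of the MHC403 library (exact 95% interval 0.436 to 0.447) and 0.336% of the WT library (0.331 to 0.341). The entries left out were Sfrs3, Sfrs7, Sfrs11 and U2af26. Of these, Sfrs11, the SR entry of lowest ratio, shares only 135 of its 400 bases with Srsf11. The sum over hnRNP entries was 14969 reads in MHC403 and 12382 in WT, a ratio of 1.21 (1.18 to 1.24). The sum over SR entries was 5040 and 3426, a ratio of 1.47 (1.41 to 1.54). Reads of SR entries per read of hnRNP entries were thus 0.337 in MHC403 and 0.277 in WT, 1.22-fold higher. No scaling can move this quotient, but it covers only entries chosen by symbol. Values without 2 genes, Hnrnpa2b1 and Srsf5, chosen after their values were seen, lay closer together. Without Hnrnpa2b1 the quotient was 0.374 in MHC403 and 0.339 in WT, 1.10-fold, and without Srsf5 as well it was 0.266 and 0.265, 1.01-fold.

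Promoter sequences are shown for 5 members that the results turn on, because the assay reads transcripts from their starts. They are the 2 highest ratios (Tra2b and Sf3a2), the SR gene with most reads (Srsf5), and the lowest and highest hnRNP. RefSeq promoters (GRCm38.p6 build, which is not the build of the counts) were at hand for 44 of the 49 RefSeq genes behind the members. Each is printed 5′ to 3′ on the gene's strand, from 250 bases before the RefSeq start to 30 bases after it. Where several starts are annotated, the most upstream is used. Capitals mark matches, on either strand, to 8 motifs. These were TATAAA as the core promoter box, the CCAAT box by its own letters, GGGCGG as the GC box, and CCGGAAG as the letters bound by ETS factors. The others were CACGTG as the E-box, TGACGTCA as the cyclic AMP element (CRE), and the NRF1 and YY1 motifs, given by name.
Tra2b, chr16:22265976-22266255, minus strand: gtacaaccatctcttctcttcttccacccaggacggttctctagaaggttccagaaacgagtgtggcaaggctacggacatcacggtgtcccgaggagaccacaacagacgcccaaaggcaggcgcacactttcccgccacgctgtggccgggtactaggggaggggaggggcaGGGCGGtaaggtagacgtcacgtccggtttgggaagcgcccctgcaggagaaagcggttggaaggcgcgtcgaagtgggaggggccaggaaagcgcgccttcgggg
Sf3a2, chr10:80798485-80798764, plus strand: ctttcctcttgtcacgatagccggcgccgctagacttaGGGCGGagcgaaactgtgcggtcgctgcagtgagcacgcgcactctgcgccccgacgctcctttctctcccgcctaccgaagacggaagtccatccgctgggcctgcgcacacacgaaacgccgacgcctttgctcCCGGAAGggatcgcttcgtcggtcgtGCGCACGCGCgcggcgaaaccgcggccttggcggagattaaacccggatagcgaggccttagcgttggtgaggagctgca
Srsf5, chr12:80945249-80945528, plus strand: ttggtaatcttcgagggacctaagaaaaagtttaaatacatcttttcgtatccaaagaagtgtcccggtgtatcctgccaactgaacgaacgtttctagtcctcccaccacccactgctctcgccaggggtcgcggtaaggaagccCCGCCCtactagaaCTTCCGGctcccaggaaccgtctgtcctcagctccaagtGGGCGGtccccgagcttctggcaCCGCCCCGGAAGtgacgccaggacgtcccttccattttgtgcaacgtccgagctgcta
Hnrnpa2b1, chr6:51469865-51470144, minus strand: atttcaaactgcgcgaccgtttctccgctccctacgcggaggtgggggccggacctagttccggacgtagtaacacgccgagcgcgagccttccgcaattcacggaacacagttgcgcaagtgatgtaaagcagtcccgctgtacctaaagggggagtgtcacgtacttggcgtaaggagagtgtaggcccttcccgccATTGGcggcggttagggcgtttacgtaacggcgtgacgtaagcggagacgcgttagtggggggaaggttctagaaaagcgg
Hnrnpa3, chr2:75659009-75659288, plus strand: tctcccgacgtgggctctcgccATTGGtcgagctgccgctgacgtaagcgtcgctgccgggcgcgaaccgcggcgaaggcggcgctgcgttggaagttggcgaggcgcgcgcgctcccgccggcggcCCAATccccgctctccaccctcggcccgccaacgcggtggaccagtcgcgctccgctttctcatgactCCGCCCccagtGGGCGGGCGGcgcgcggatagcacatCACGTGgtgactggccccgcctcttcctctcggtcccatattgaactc

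None of these 5 promoters held TATAAA. Tra2b held 1 GC box, Sf3a2 held 1 GC box, 1 ETS and 1 NRF1 match, and Srsf5 held 3 GC boxes and 2 ETS matches, of which 1 pair shares bases. Hnrnpa3 held 3 GC boxes, 2 of them overlapping, with 2 CCAAT boxes and 1 E-box. Hnrnpa2b1 held 1 CCAAT box, on the reverse strand, and no GC box. Over the 61 member promoters of 300 bases, 75.4% held GGGCGG, against 35.7% of all 32851 promoters in the table. For the ETS letters the shares were 34.4% and 8.86%, for NRF1 19.7% and 4.60%, for CCAAT 45.9% and 37.4%, and for TATAAA 9.84% and 13.6%. The member promoters had a median GC content of 64.7%, against 52.7% for all, and a median of 27 CpG, against 7. GC content thus moves with the GC-rich letters, and its part in these shares was not tested. For YY1 the shares were 1.64% and 0.852%, for the E-box 9.84% and 7.15%, and for CRE 1.64% and 1.79%.

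The study looked for changes in start-site use, and the authors' deposited table gives 1 score per entry. Its header calls it only a score of MHC403 over WT, and it was read here as a start-site score. The sources used here give neither its formula nor its meaning. A score above 0 was given to 21 of 54 members with at least 20 reads in both libraries, or 38.9%, against 34.7% of 10483 such entries, a share near that of all such entries. The highest scores sat among the hnRNPs. In the authors' deposited table Hnrnpa3 had a score of 62, Hnrnph3 of 49, Hnrnpf of 39 and Hnrnpa2b1 of 23. Only 0.534% of entries had a score of 62 or more, 0.973% of 49 or more, 1.82% of 39 or more and 6.60% of 23 or more.

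All 4 genes have more than 1 annotated start, 4 for Hnrnpf and 2 for the others. They are also the 2 highest and the 2 lowest hnRNP ratios, and the score and the ratio come from the same reads. Among members with 2 or more starts 10 of 22 (45.5%) had a score above 0, against 40.1% of all such entries. Among those with 1 start 11 of 32 (34.4%) had one, against 31.7% of all such entries, so both shares lay near the background. The table gives no reads per start, so whether the use of any start differed cannot be seen. Tra2b and Sf3a2, the highest ratios, each have 1 start and a score of 2, while Srsf5 and U2af2 had a score of 0. Srsf15, at 1.97-fold, had a score of 12, so high ratios stood beside low and high scores alike.

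**Figure D4:**
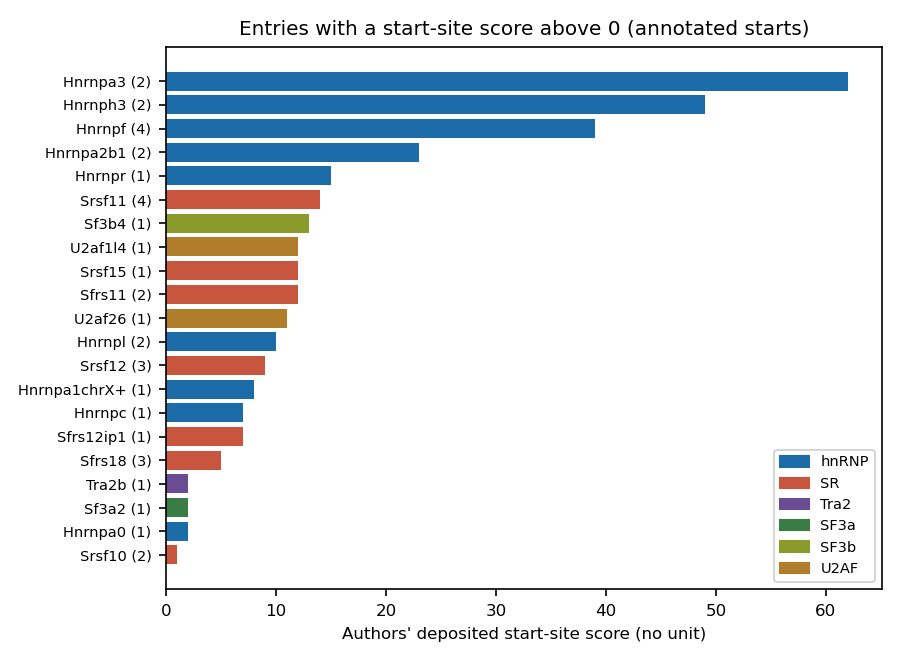
The authors' deposited score, read here as a start-site score (x axis, no unit, linear), for the 21 members with a score above 0. Bars are coloured by protein class, with the number of annotated starts in brackets. Hnrnpa3, Hnrnph3, Hnrnpf and Hnrnpa2b1 have the longest bars, at 62, 49, 39 and 23.

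Other parts of the splicing machinery had ratios close to those of the members. Over 10 lists of spliceosome and splicing genes, 125 genes were measured, with a median log2 ratio of 0.51. Of these, 13 (10.4%) reached 2-fold higher, against 26.1% of all measured entries, and 0 reached 2-fold lower, against 2.43% of all. The counts per list below have these same shares of all entries as their background. With median-of-ratios scaling 1 (0.8%) was at least 2-fold higher, against 10.9% of all, and 5 (4.0%) were lower, against 7.59% of all.

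Lists of core spliceosome particles had median log2 ratios between 0.39 and 0.63, against 0.57 for all measured entries, with 10 of 15 U5 and tri-snRNP genes and 10 of 14 Sm and LSm genes below that median. In the U1 snRNP, 0 of 3 genes passed 2-fold, and Snrpa, Snrnp70 and Snrpc were 1.33-fold, 1.55-fold and 1.65-fold higher. In the U2 snRNP list 0 of 5 passed, with Snrpb2 and the branch point binder Sf1 highest at 1.56-fold and 1.52-fold, and Phf5a and Puf60 lowest at 0.983-fold and 1.43-fold. In the U5 and tri-snRNP list 1 of 15 was higher, the GTPase Eftud2 at 2.13-fold, followed by Usp39 at 1.70-fold, and Prpf3 and Nhp2l1 were lowest at 1.02-fold and 1.04-fold. Of 14 Sm and LSm genes, the ring proteins of snRNPs, Lsm4 (2.15-fold) and Snrpd1 (2.07-fold) were higher, while Lsm5 was 1.81-fold (1.34 to 2.46) lower and Snrpd2 level at 1.001-fold.

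In the Prp19 complex 1 of 11 genes was higher, Crnkl1 at 2.13-fold, with Xab2 next at 1.68-fold. Plrg1 had 44 reads in MHC403 and 61 in WT (0.723-fold, 0.479 to 1.08), and Prpf19 had 1136 and 1231 (0.925-fold, 0.853 to 1.003). Of 14 helicases and step factors 2 were higher, the DEAH-box helicases Dhx38 (2.26-fold) and Dhx8 (2.15-fold), and Slu7 (0.978-fold) and Ddx17 (1.22-fold) were lowest. Their median log2 ratio of 0.68 was the highest of the 10 lists.

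The kinases that phosphorylate SR proteins lay on both sides of 1. Of 12 measured kinases and nuclear import receptors 2 reached 2-fold higher and 0 reached 2-fold lower. The kinase Clk3 had 178 reads in MHC403 and 80 in WT (2.23-fold, 1.70 to 2.94), and the import receptor Tnpo2 had 226 and 105 (2.16-fold, 1.70 to 2.75). In contrast Clk1 had 123 reads in MHC403 and 167 in WT, 1.35-fold (1.07 to 1.72) lower, and Clk4 had 74 and 103, 1.39-fold (1.02 to 1.90) lower. The intervals of Clk3 and Clk1 did not overlap.

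Among SR-related proteins 0 of 14 genes passed 2-fold, with Thrap3 (1.82-fold) and Luc7l (1.57-fold) highest and Luc7l3 (0.922-fold) and Pnn (1.002-fold) lowest. In the list of the exon junction complex and nonsense-mediated decay, the pathway that degrades the unproductive isoforms of many SR genes, 1 of 13 was higher, the helicase Eif4a3 at 2.14-fold, with Rbm8a next at 1.87-fold. Upf3b and Magohb were 1.55-fold (1.10 to 2.21) and 1.48-fold (1.03 to 2.13) lower.

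The list of other regulators held the largest ratios. Of 24 genes 4 were at least 2-fold higher, Ptbp2, Ptbp1, Fubp3 (2.40-fold) and Syncrip (2.00-fold). That is 16.7%, against 26.1% of all measured entries. Ptbp2, a polypyrimidine tract binding repressor, had 98 reads in MHC403 and 33 in WT (2.98-fold, 1.99 to 4.56), and its paralog Ptbp1 had 452 and 177 (2.56-fold, 2.15 to 3.06). Rbm10 had 88 reads in MHC403 and 119 in WT, 1.35-fold (1.02 to 1.80) lower, and its paralog Rbm5 had 325 and 389, 1.19-fold (1.03 to 1.39) lower. No entry of the hnRNP class above reached the ratio of Ptbp1, but that class was set by symbol alone. Some hnRNP proteins have other symbols and are in this list instead, such as Ptbp1 (hnRNP I) and Syncrip (hnRNP Q). Pcbp1 and Pcbp2 (hnRNP E1 and E2) are also here, at 1.97-fold and 1.29-fold. Their reads are not in the hnRNP median or sum.

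**Figure D5:**
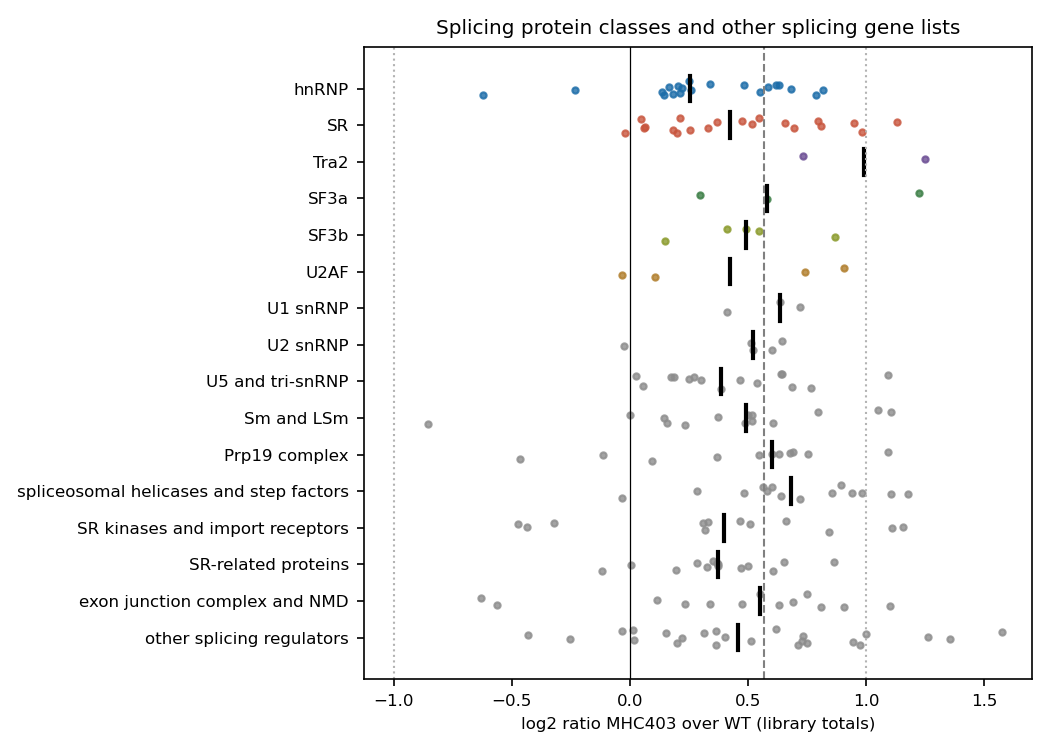
Log2 ratio MHC403 over WT (x axis, library totals) of each measured gene (points) in the member classes (coloured) and 10 other splicing lists (grey), with list medians as black bars. The dashed line is the median of all measured entries at 0.57 and dotted lines mark 2-fold. The hnRNP bar at 0.25 lies lowest, and Ptbp2 is the point farthest right.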

How the data were processed

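RNA was extracted with Trizol, and intact polyA RNA was sequenced from its 5′ ends without fragmentation, after size selection and linear amplification, per the labels' protocols. Per the submitters' processing notes, TopHat 1.0.14 and the mm9 build were used. The sources used here do not name the counting program, its use of strand or its treatment of reads with several matches. Per the file headers, the authors deposited raw read counts per entry, normalized reads (RPM, which equalled reads scaled to the listed total within 4.94e-06), a fold ratio, a p-value and a start-site score. The deposited p-value has no stated test and was not used, nor was the deposited fold.

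Ratios, exact intervals (scipy 1.17.1) and medians were computed from the counts. DESeq2 1.42.0 gave median-of-ratios factors and edgeR 4.0.16 gave TMM factors, with no model fitted. The ratio and interval were tested on simulated data. For an entry with 50 reads in both libraries, the interval is 0.662 to 1.51. Amplified reads are not independent molecules, so intervals cover counting error only. Entries with identical windows can list different reads: Hnrnpm had 689 reads in MHC403 and 580 in WT, and mKIAA4193, with the same windows, 349 and 272. Read counts therefore do not rank the levels of genes. Statements of most or fewest reads, and the quotient of SR over hnRNP reads, describe listed counts over windows of unlike length. Of the members, 18 have windows that overlap another entry. Shared words are 36-base words within 400 bases of GENCODE transcript starts.

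Members, gene lists and alternatives were chosen with earlier results of these data known. Full values were given for the members of highest and lowest ratio and most reads in each class and for every member past 2-fold with either scaling, with others added. Of each other list the 2 genes of highest and the 2 of lowest ratio were named.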

Additional observations from a re-analysis of the deposited data

How the results depend on the processing

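Scaling was the choice that moved most values. With median-of-ratios factors, TMM factors and totals without mitochondrially encoded entries, 0, 0 and 0 members were at least 2-fold higher, against 3 with library totals. The shares of all measured entries at least 2-fold higher fell as well, to 10.9%, 10.9% and 15.2%, against 26.1% with library totals. Members at least 2-fold lower numbered 1 with median-of-ratios and 1 with TMM, against 0 with library totals. Of all measured entries 7.59%, 7.55% and 4.51% were at least 2-fold lower with the 3 scalings, against 2.43% with library totals. Intervals above 1 numbered 8, 8 and 21, against 34, and intervals below 1 numbered 18, 18 and 7, against 1. With median-of-ratios scaling 29.6% of all intervals lay above 1 and 28.4% below, against 63.2% and 10.3% with library totals. These shares of all entries were not computed for the other scalings. The median log2 ratio of the members was -0.11, -0.10 and 0.11, against 0.44, and that of all measured entries moved with it, so the gap of -0.13 was the same. Class medians with the same 3 scalings were -0.29, -0.29 and -0.079 for hnRNP, -0.13, -0.12 and 0.089 for SR, 0.44, 0.45 and 0.66 for Tra2, and 0.034, 0.037 and 0.25 for SF3a. For SF3b they were -0.056, -0.054 and 0.16, and for U2AF -0.12, -0.12 and 0.090, so these signs depend on the scaling. The hnRNP median was thus below 0 in all 3, and the Tra2 median above 0. Measured members, overlapping pairs included, held 0.459% of MHC403 reads and 0.349% of WT reads, or 0.542% and 0.520% of reads that were not mitochondrially encoded. At a 1.5-fold threshold 18 members were higher, or 33.3%, against 49.1% of all measured entries, and 1 was lower, or 1.85%, against 5.62% of all. Leaving out entries that overlap others removed Hnrnpa2b1, so that 0 intervals lay below 1, and the shares became 0.340% and 0.241%. With a minimum of 200 reads the 35 remaining members had a median of 0.54, only 0.019 below that of all such entries, so the gap of the median depends on the minimum. Counts of members differed by at most 1.5 times with minima of 20 and 200 reads and with no minimum, and with 2 settings chosen after seeing the data, each overlapping pair taken once and entries outside the families by RefSeq name left out. No paired analysis was possible because each genotype has 1 pooled library.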

Other observations

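Entries with older hnRNP symbols fall outside the rule that chose the members, as do hnRNP proteins with other symbols, such as Ptbp1. Hnrpdl, a relative of Hnrnpd, had 526 reads in MHC403 and 322 in WT (1.64-fold, 1.42 to 1.89), and Hnrpll, a relative of Hnrnpl, had 106 and 64 (1.66-fold, 1.21 to 2.30). The entry Hnrpk, inside Hnrnpk, had 312 and 196 reads (1.60-fold, 1.33 to 1.92). The entry Hnrph1, with windows apart from those of Hnrnph1, had 42 reads in MHC403 and 12 in WT, under the minimum of 50. The entry nssr 1, inside Srsf10, had 63 and 35 reads (1.80-fold, 1.18 to 2.81), against 1.15-fold for Srsf10, and these intervals overlap.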
